A study of Mus musculus with 12 samples.

Results

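The colony-stimulating factors and the receptor chains that read GM-CSF were followed in cerebral vessels during the first hours of systemic inflammation. The set was given by name and held 7 genes of the 54119 with summed counts: the ligand genes Csf1, Il34, Csf2, and Csf3, and the receptor chain genes Csf2ra, Csf2rb, and Csf2rb2. Of these, 6 passed the filter on low counts that left 19150 genes for testing, and Csf2 did not. RNA-seq was performed on vessels isolated from the perfused forebrain, with the meninges removed, of wild type C57BL6 mice aged 2 to 3 months. The mice were injected intraperitoneally with LPS, a bacterial endotoxin, at 10 mg/kg and taken 15 min, 30 min, or 4 h later, or were given PBS. Each of the 4 groups had 3 libraries, and a library pooled the vessels of 1 male and 1 female, so sex could not be examined and every group drew on 6 mice. The labels name no genetic change in any group, and when the PBS mice were killed was not given in the sources used here.

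CSF-1 keeps monocytes and macrophages alive and dividing by binding the receptor CSF-1R, and IL-34 is the other ligand of that receptor, known in the brain mainly as a neuronal factor that maintains microglia. G-CSF, the product of Csf3, drives the production of neutrophils and their release from bone marrow through its own receptor, encoded by Csf3r. GM-CSF, the product of Csf2, binds an alpha chain encoded by Csf2ra and signals through the common beta chain encoded by Csf2rb, which also serves IL-3 and IL-5. Mice carry an additional beta chain gene next to it, Csf2rb2, whose product works with IL-3 alone. Endothelial cells are known to make several of these factors when exposed to LPS.

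The files held between 18.3 and 25.9 M estimated fragments per library. TMM factors, which adjust the library total for composition, were 1.16 to 1.17 in PBS and 0.715 to 0.718 at 4 h, so the composition at 4 h differed from that of PBS. Levels are CPM, the count as a share of the TMM-scaled library total in units of 1 per M, and differences are log2 fold changes with a standard error (SE). Calls were made with edgeR at an adjusted p under 0.05 over all genes tested, in a test that asks for a change of more than 1.5-fold. With 3 libraries per group and nothing to show which spread is biological, p-values measure the spread between these pools. Without the TMM factors the all-gene median of the log2 fold changes against PBS was -0.03 at 15 min, -0.17 at 30 min, and by 4 h -0.71, and the share of called genes that were higher at 4 h was 18.2% in place of 58%. At 30 min that share was 60.8% in place of 82.4%.

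The promoter of Csf1 and a stretch of both beta chain genes are shown because the first belongs to a ligand called from 30 min on and the second explains why the beta chain values have to be read together. Of the 7 genes, 4 had a RefSeq promoter window on GRCm38.p6, running from 250 bases before the transcription start to 50 after it. The Csf1 window, chr3:107760420-107760719 on the minus strand, held a match to the NF-κB consensus, which is in capitals:
Csf1: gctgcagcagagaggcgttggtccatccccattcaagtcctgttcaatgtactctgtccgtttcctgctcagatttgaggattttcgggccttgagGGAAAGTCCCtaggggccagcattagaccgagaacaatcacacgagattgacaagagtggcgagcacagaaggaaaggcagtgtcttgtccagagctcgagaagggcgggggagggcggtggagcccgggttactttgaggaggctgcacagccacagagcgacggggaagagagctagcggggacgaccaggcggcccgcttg
The match read on the opposite strand and lay at positions -154 to -145, counting the first transcribed base as 0. Both strands were searched for that consensus, for the AP-1 motif TGANTCA, for the C/EBP motif TTGCNNAA, and for the TATA box TATAAA. Among all 32851 windows of the same length, 8.46% held the NF-κB consensus, 7.81% the AP-1 motif, 10.8% the C/EBP motif, and 13.6% the TATA box. The Csf2 window held a C/EBP match at -145 to -138, but its RefSeq start lay 232 bases upstream of the GENCODE start of the gene. The windows of Csf2ra and Csf2rb2 held none of the 4 motifs.

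The coding sequences of Csf2rb-201 and Csf2rb2-201, the transcripts with most counts of their genes in every group, are 2691 and 2637 bases long. Over 2631 aligned bases they differed at 126, an identity of 95.2%. In the annotation on GRCm38, 28.9% of the 31-base words of Csf2rb-201 also occur in transcripts of Csf2rb2, and 29.1% the other way round. The stretch of 90 aligned bases with the most differences, 15, among windows taken in steps of 1 codon is printed 5′ to 3′ with the differing bases in capitals, bases 301 to 390 of the first coding sequence and 304 to 393 of the second:
Csf2rb-201: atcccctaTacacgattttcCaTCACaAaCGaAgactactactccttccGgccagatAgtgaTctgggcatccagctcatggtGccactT
Csf2rb2-201: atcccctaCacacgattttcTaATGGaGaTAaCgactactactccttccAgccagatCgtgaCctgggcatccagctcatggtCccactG
Fragments from the identical stretches can be split between both genes only by estimation, so the counts of the pair and their fitted differences are also given as a sum.

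Across the set, Csf1 and Csf3 were the first to be called higher and the beta chains followed. At LPS 30 min Csf1 and Csf3 were higher than in PBS, and at LPS 4 h Csf1, Csf3, Csf2rb, and Csf2rb2 were higher, with Csf3 up about 12790-fold. Csf2 was counted in all 3 libraries at 4 h and in none of PBS. Il34 and Csf2ra were not called at any time.

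**Figure D1:**
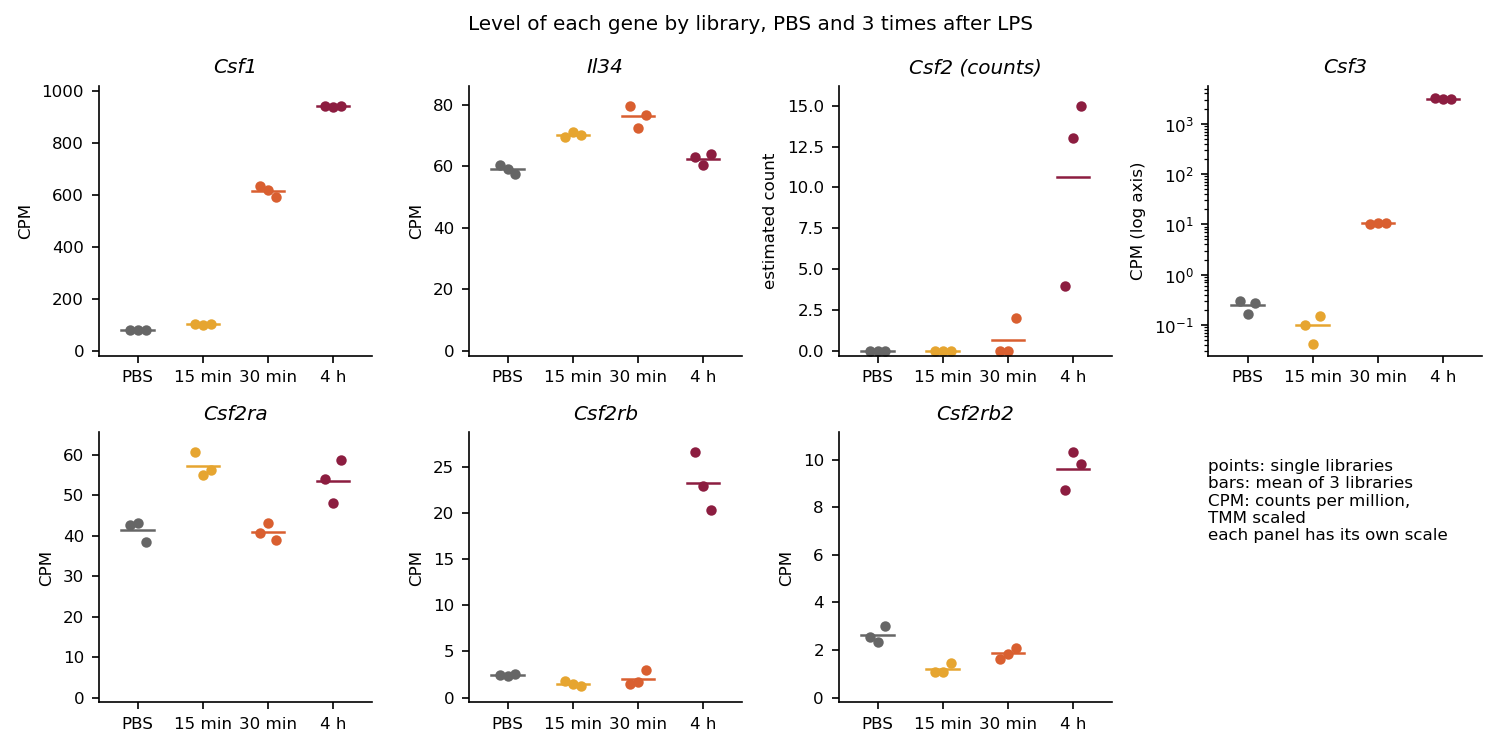
Level of each of the 7 genes in the PBS group and in the LPS groups by time, as CPM scaled with TMM factors on linear axes, except for Csf3 on a log axis and Csf2 as estimated counts. Points are single libraries and bars the mean of 3, and each panel has its own scale. Csf1 stands between 593 and 635 CPM at 30 min against 79.1 to 82.4 in PBS, and Csf3 between 3136 and 3212 CPM at 4 h.

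Csf1 (ENSMUSG00000014599, chr3:107741048-107760469, minus strand) was abundant in PBS and rose within 30 min. In PBS the libraries held 82.4, 80.1, and 79.1 CPM, and at 15 min 102, 102, and 105 CPM. They reached 635, 619, and 593 CPM at 30 min and 941, 937, and 944 CPM at 4 h. The groups did not overlap at any step, and the spread within each was small. At 15 min Csf1 was 1.28-fold higher than PBS (log2 0.35, SE 0.030), within the 1.5-fold limit and not called (edgeR adjusted p = 1). The 30 min level was 7.65-fold that of PBS (log2 2.94, SE 0.029, edgeR adjusted p = 1.66e-26). By 4 h the fold was 11.7 (log2 3.55, SE 0.029, edgeR adjusted p = 8.19e-29).

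On the log2 scale most of this rise fell between 15 and 30 min, where Csf1 increased by 2.58 on the log2 scale (SE 0.028, edgeR adjusted p = 9.53e-25). From 30 min to 4 h the log2 difference was 0.61 (SE 0.026) and was not called (edgeR adjusted p = 0.117). That step lies at the 1.5-fold limit and depends on the scaling. It was called with RLE factors (0.63, edgeR adjusted p = 0.0355) and without LPS 30 min replicate 1 (0.63, edgeR adjusted p = 0.0456), and with library size alone the difference was 0.07. Per length, Csf1 stood at 249 TPM (SD 8.25, n = 3) at 30 min and 242 TPM (SD 2.16, n = 3) at 4 h. TPM is the abundance per transcript length as a share of each library and is not adjusted for composition.

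Csf1 has 7 annotated transcripts in the files, and nearly all of its TPM was assigned to protein-coding ones. The transcripts for the long precursor of 552 residues, Csf1-201 and Csf1-203, made up 54.6% of Csf1 TPM in PBS (SD 4.59, n = 3) and 56% at 4 h (SD 2.61). The share of Csf1-202, for a short precursor of 257 residues, was 40.6% in PBS (SD 3.22) and 34.2% at 4 h (SD 2.02). On the TPM scale the long form went from 21.1 to 135 and the short form from 15.8 to 82.6, and for both every 4 h library lay above every PBS library. The fragments assigned to the retained-intron transcript Csf1-206 were 2.05, 9.24, and 13.6 in PBS and 39.8, 33.4, and 39.6 at 15 min. They were 155, 189, and 164 at 30 min and 62.2, 61.1, and 39.2 at 4 h. At 15 min, when total Csf1 was not called, this transcript stood at 2.29% of Csf1 TPM (SD 0.098), above every PBS library, and at 4 h it was back at 0.68% (SD 0.19). These shares are estimates of Salmon for overlapping transcripts and were not tested.

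**Figure D2:**
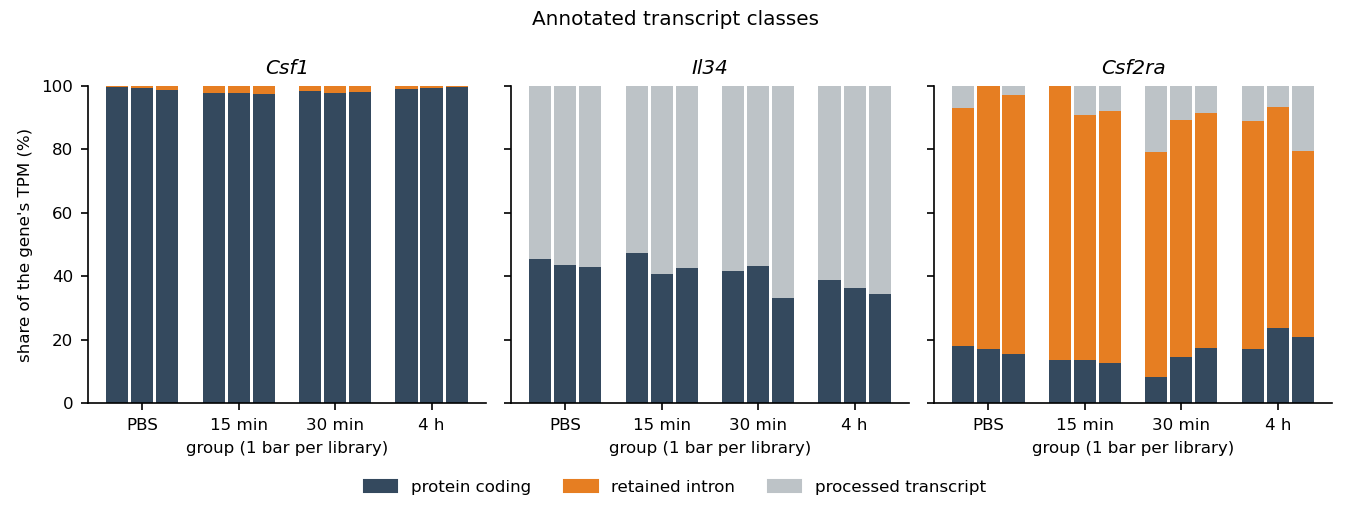
Share of the TPM of Csf1, Il34, and Csf2ra assigned to annotated protein-coding, retained-intron, and processed transcripts, with 1 bar per library and 3 bars per group. Csf1 is almost all protein coding, and Csf2ra is mostly retained intron in every group.

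Il34 (ENSMUSG00000031750, chr8:110741829-110805924, minus strand) is the gene of the other CSF-1R ligand and was not called. It measured 60.3, 59.2, and 57.6 CPM in PBS, 69.4, 71.0, and 70.2 at 15 min, 79.7, 72.4, and 76.6 at 30 min, and 63.0, 60.5, and 63.9 at 4 h. The libraries at 15 and 30 min lay above all PBS libraries, and those at 4 h, from 60.5 CPM, lay just above the highest PBS library. Against PBS the log2 differences were 0.25 (95% interval 0.17 to 0.33), 0.37 (0.28 to 0.45), and 0.08 (-0.0093 to 0.17), with edgeR adjusted p = 1 at each time. The intervals stay within the 1.5-fold limit. With library size alone the direction at 4 h turned, to -0.62 (edgeR adjusted p = 0.105), and Il34 TPM was 105.5 (SD 1.81, n = 3) in PBS and 66.5 (SD 3.68, n = 3) at 4 h.

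From 30 min on, the order of the CSF-1R ligands was reversed. In PBS the ratio of Csf1 to Il34 TPM was 0.364, 0.38, and 0.357, and at 15 min 0.414, 0.378, and 0.393. At 30 min it was 2.16, 2.39, and 1.85, and at 4 h 3.72, 3.82, and 3.38. In PBS and at 15 min Il34 was thus the more abundant ligand transcript in every library, and at 30 min and 4 h Csf1 was. A ratio within a library does not depend on the scaling between libraries. However, 44% of Il34 TPM in PBS (SD 1.32, n = 3) and 36.6% at 4 h (SD 2.20) was assigned to protein-coding transcripts. Il34-205, a short processed transcript of 675 bases, held 50% and 55.3%. TPM gives a fragment on a short transcript more weight. By mean estimated counts, protein-coding transcripts held more than processed ones, 1221 against 404 in PBS and 619 against 267 at 4 h. Counting protein-coding transcripts alone, an alternative chosen after seeing the data, the 4 h difference was -0.02 (edgeR adjusted p = 1). The antisense genes Gm15894 and Gm15895 overlap Il34 and had 97 and 82 counts over all 12 libraries, and reads without strand cannot be told apart there.

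Csf1r, the receptor of both ligands, was not called at any time. Its level was 70.8, 77.2, and 70.0 CPM in PBS and 55.7, 53.9, and 51.6 CPM at 4 h (log2 -0.44, SE 0.050, edgeR adjusted p = 1). At 4 h the libraries were below all PBS libraries, in CPM by less than the 1.5-fold limit. The size of this fall depends on the scaling, since Csf1r TPM was 28.7 (SD 1.63, n = 3) in PBS and 13.5 (SD 4.85, n = 3) at 4 h. At 15 and 30 min the log2 differences were -0.08 (SE 0.046) and -0.05 (SE 0.046). Over the same interval the summed level of 8 microglia markers went from 108 to 111 CPM in PBS down to 61.5 to 62.5 CPM at 4 h, and that of 6 perivascular macrophage markers from 128 to 137 CPM up to 198 to 201 CPM. Of the 6, 3 were called higher and 0 lower, beside 19.1% and 13.9% of all genes. The direction of their sum depends on the scaling, since in TPM it was 132 to 147 in PBS and 112 to 123 at 4 h. In bulk samples fewer cells of a type and less RNA per cell cannot be told apart, and the part of these cell types in the Csf1r values was not tested.

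Csf3 (ENSMUSG00000038067, chr11:98701263-98703629, plus strand) showed the widest range of the set. Estimated counts were 8, 5, and 7 in PBS and 3, 1, and 4 at 15 min. They were 233, 252, and 242 at 30 min and 41663, 47090, and 46315 at 4 h. Thus a transcript at the edge of detection became plentiful, and at 4 h it ranked 35 of 54119 genes by mean TPM and took 0.227% of the counts of a library (SD 0.00228, n = 3). In CPM the level went from 0.300, 0.169, and 0.267 in PBS to 10.1, 10.8, and 10.8 at 30 min and 3212, 3136, and 3164 at 4 h.

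At 30 min Csf3 was 42.7-fold higher than PBS (log2 5.42, SE 0.119, edgeR adjusted p = 9.02e-20). The log2 difference at 4 h was 13.64 against PBS, and from 30 min to 4 h it was 8.23 (SE 0.038, edgeR adjusted p = 7.23e-33), a further 299-fold. Between 15 and 30 min it was 6.64 (SE 0.141, edgeR adjusted p = 7.81e-20). The 20 PBS counts behind these folds are few, and the approximate SE values of Csf3 are narrower than counting error allows. At 15 min the log2 difference was -1.22 (SE 0.365, edgeR adjusted p = 0.556), on 8 counts against 20 over 3 libraries each, and was not called. Every 15 min library lay below every PBS library, but counts this few leave the size of a change uncertain.

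Csf3r, which encodes the G-CSF receptor, had 70, 107, and 97 counts in PBS and 323, 381, and 435 at 4 h. It rose by 3.01 on the log2 scale at 4 h (SE 0.158, edgeR adjusted p = 7.03e-13), and the log2 differences at 15 and 30 min, 0.01 (SE 0.173) and -0.18 (SE 0.179), were not called. At 30 min, where Csf3 was called, its receptor was not. Neutrophils carry this receptor. The summed level of 8 neutrophil markers was 4.50 to 5.15 CPM in PBS and 5.54 to 7.76 CPM at 30 min. At 4 h it was 208 to 210 CPM, and all 7 tested markers were higher, beside 19.1% of all genes. Ly6g, a defining neutrophil marker, had no count in PBS or at 15 min. The part of neutrophils in the rise of Csf3r was not tested.

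Csf2 (ENSMUSG00000018916, chr11:54247271-54249667, minus strand) stayed rare. It had 0 counts in the 3 PBS libraries, 0 at 15 min, and 0, 0, and 2 at 30 min. At 4 h the libraries held 4, 13, and 15 counts. Every 4 h library thus held Csf2 fragments and no PBS library did. The 32 counts at 4 h (exact 95% Poisson interval 21.9 to 45.2, for counting error only) correspond to 0.751 CPM over the group. Had the PBS libraries together held 3 counts, the limit that a count of 0 allows, their level would be 0.0364 CPM, and the measured 0.751 CPM was thus at least 20.7-fold higher, with the counting error of the 4 h counts left aside. Without the filter, where 32085 genes were tested, Csf2 was called at 4 h (edgeR adjusted p = 0.00017). Gm12223, an antisense gene over the Csf2 locus, had 2 counts in all libraries.

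**Figure D3:**
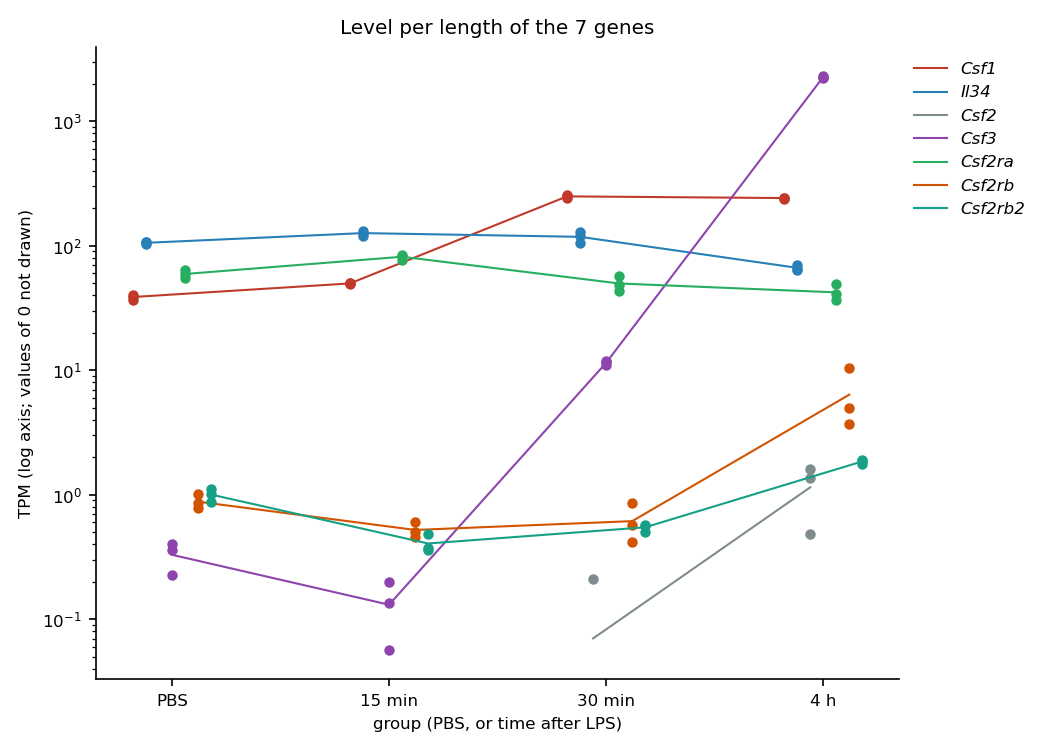
Level per length (TPM over all annotated transcripts, log axis) of the 7 genes in PBS and by time after LPS, with points for single libraries and lines through the means of 3, and values of 0 left out. Il34 leads in PBS and at 15 min, Csf1 at 30 min with 249 TPM, and Csf3 at 4 h with 2272 TPM.

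Per length and over all annotated transcripts, the order of the genes was different at 30 min and again at 4 h. In PBS it was Il34 (105.5 TPM), Csf2ra (59.3), Csf1 (38.7), Csf2rb2 (1.00), Csf2rb (0.88), Csf3 (0.329), and Csf2 at 0. The beta chain genes did not differ beyond the spread of their libraries in PBS, at 15 min, or at 30 min, and every other pair of neighbours was separated. At 15 min the order of the other genes was the one in PBS. At 30 min Csf1 (249 TPM) came first, 2.11-fold above Il34, and Csf3 (11.5 TPM) had passed both beta chain genes. At 4 h Csf3 (2272 TPM) led by 9.4-fold over Csf1, and Csf2 (1.15 TPM) was last, with libraries from 0.486 to 1.60 TPM. Counting protein-coding transcripts alone, Csf2ra stood below Csf1 in PBS (10.0 against 38.5 TPM) and at 15 min (10.9 against 48.7 TPM). At 30 min Csf2ra then stood below Csf3 as well (6.52 against 11.5 TPM).

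Csf2ra (ENSMUSG00000059326, chr19:61223957-61228429, minus strand), the GM-CSF alpha chain, was not called in any comparison. It measured 42.6, 43.1, and 38.5 CPM in PBS, 60.6, 55.0, and 56.3 at 15 min, 40.6, 43.2, and 38.9 at 30 min, and 53.9, 48.0, and 58.7 at 4 h. The libraries at 15 min and at 4 h lay above PBS and those at 30 min among them. Against PBS the log2 differences were 0.47 (95% interval 0.35 to 0.59), -0.02 (-0.15 to 0.11), and 0.37 (0.24 to 0.50), each with edgeR adjusted p = 1. With library size alone the 4 h direction turned, to -0.33, and the near-zero 30 min difference changed sign under several alternatives.

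Most of this signal did not come from transcripts that encode the receptor. Protein-coding transcripts held 16.9% of Csf2ra TPM in PBS (SD 1.36, n = 3), 13.3% at 15 min (SD 0.43), 13.5% at 30 min (SD 4.69), and 20.6% at 4 h (SD 3.35). Retained-intron transcripts held 79.8%, 81%, 73.1%, and 66.7% in the same order. Of these, Csf2ra-206, of 291 bases, held 21.75% of Csf2ra TPM in PBS (SD 5.83) on 10.4, 11, and 14.5 fragments. By mean estimated counts, retained-intron transcripts held 859, 1216, 732.5, and 509, against 279, 292, 187, and 238 for protein-coding ones. These shares are estimates of Salmon for overlapping transcripts. The protein-coding transcripts had 289, 285, and 263 counts in PBS and 309, 270, and 297 at 15 min. They had 142, 211, and 207 counts at 30 min and 174, 248, and 293 at 4 h. Fitted with those counts alone, an alternative chosen after seeing the data, Csf2ra differed from PBS by 0.12, -0.32, and 0.72 on the log2 scale and was not called (edgeR adjusted p = 1, 1, and 0.16). From 30 min to 4 h it was then called higher by 1.03 (edgeR adjusted p = 0.00262), where the whole gene differed by 0.39 (SE 0.068, adjusted p = 1).

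Csf2rb (ENSMUSG00000071713, chr15:78325752-78353847, plus strand), the common beta chain, rose at 4 h. Its counts were 65, 68, and 68 in PBS, 52, 35, and 33 at 15 min, 35, 39, and 66 at 30 min, and 345, 344, and 297 at 4 h. The 4 h libraries stood far above all others, and at 15 min all 3 were below PBS. In CPM the 4 h libraries reached 26.6, 22.9, and 20.3 against 2.43, 2.29, and 2.60 in PBS, a 9.51-fold rise (log2 3.25, SE 0.188, edgeR adjusted p = 3.2e-12). From 30 min to 4 h Csf2rb rose 11.35-fold (SE of log2 0.196, edgeR adjusted p = 1.61e-12). The differences at 15 min (log2 -0.69, 95% interval -1.13 to -0.26) and 30 min (-0.26, -0.68 to 0.17) were not called (edgeR adjusted p = 1).

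The deposited normalized counts put the 4 h libraries of Csf2rb further apart than the fragments do. They were 532, 1154, and 408, and the TPM values were 4.93, 10.4, and 3.72. In LPS 4 h replicate 2 Salmon assigned 3.55 fragments to Csf2rb-207 and 6.13 to Csf2rb-208, transcripts of 370 and 340 bases that had no fragment in any other library. Those 9.68 fragments made up 6.34 of the 10.4 TPM, and without them the 3 libraries stood at 4.93, 4.10, and 3.72 TPM. Thus the high value of replicate 2 came from few fragments on short transcripts.

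**Figure D4:**
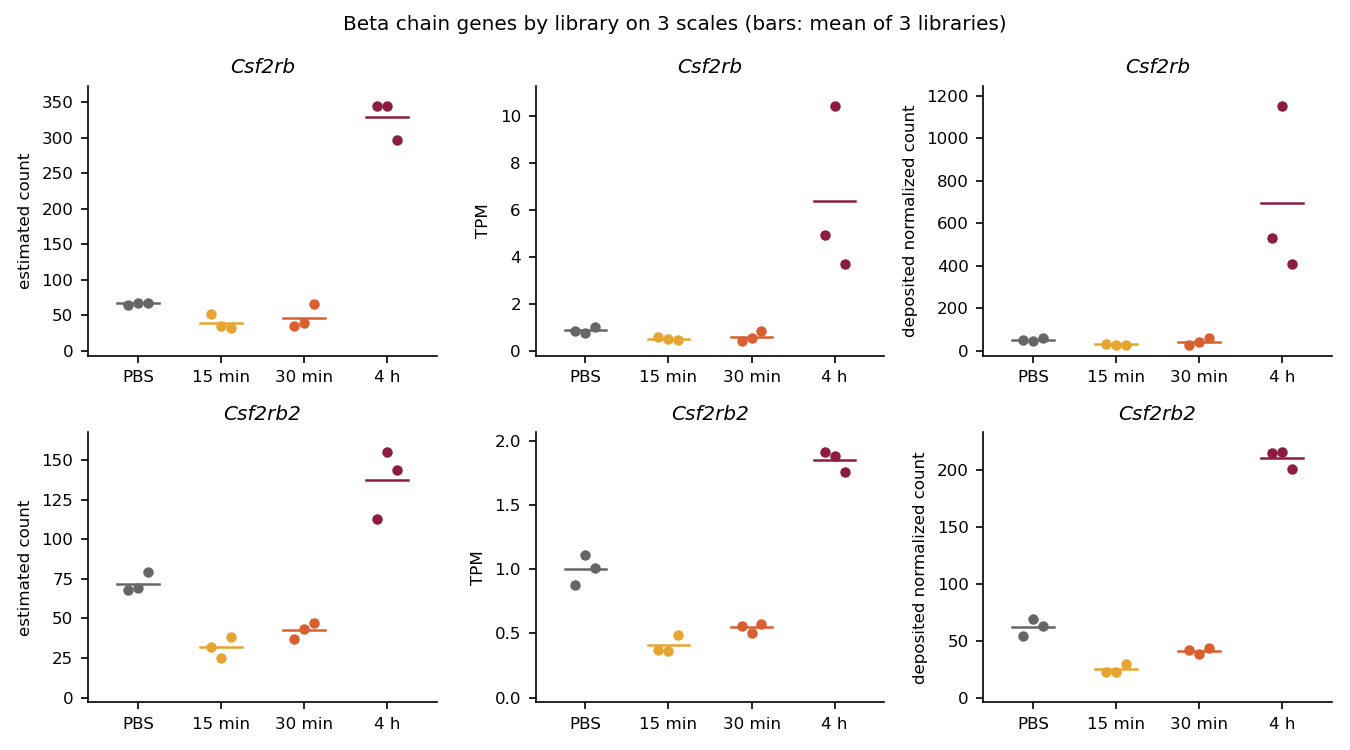
Csf2rb (top) and Csf2rb2 (bottom) in PBS and by time after LPS as estimated counts, TPM, and deposited normalized counts, with points for single libraries and bars for the mean of 3. The 4 h counts of Csf2rb lie between 297 and 345, whereas 1 library reaches 10.4 TPM and 1154 normalized counts.

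Csf2rb2 (ENSMUSG00000071714, chr15:78282507-78305721, minus strand), the IL-3 beta chain, was the single member called at 15 min. It had 68, 69, and 79 counts in PBS and 32, 25, and 38 at 15 min. It had 37, 43, and 47 counts at 30 min and 113, 155, and 144 at 4 h. The libraries at 15 and 30 min were all below PBS and those at 4 h all above. At 15 min it fell by 1.13 on the log2 scale (SE 0.207, edgeR adjusted p = 0.0387), a 2.19-fold decrease on few counts.

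That fall stood near the threshold. The call was lost without PBS replicate 1 (-1.15, edgeR adjusted p = 0.0659), PBS replicate 3 (-1.02, 0.166), LPS 15 min replicate 1 (-1.06, 0.15), LPS 15 min replicate 2 (-1.06, 0.142), or LPS 4 h replicate 2 (-1.13, 0.0505). DESeq2 with the same fold limit also did not make it (-1.16, adjusted p = 0.399). At 30 min the difference from PBS was -0.50 (SE 0.200, edgeR adjusted p = 1). At 4 h Csf2rb2 was 3.66-fold higher than PBS (log2 1.87, SE 0.183, edgeR adjusted p = 2.25e-07), and from 30 min it rose by 2.38 (SE 0.193, adjusted p = 5.66e-09). With library size alone the 4 h differences from PBS were lower, 1.17 for Csf2rb2, 2.55 for Csf2rb, 2.84 for Csf1, and 12.94 for Csf3, and all 4 stayed called. In TPM the 4 h level of Csf2rb2 was 1.85 times that of PBS.

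Summed over both genes, the beta chain counts were 133, 137, and 147 in PBS, 84, 60, and 71 at 15 min, 72, 82, and 113 at 30 min, and 458, 499, and 441 at 4 h. The sum was fitted in place of Csf2rb, an alternative chosen after seeing the data. It was higher at 4 h by 2.70 on the log2 scale (edgeR adjusted p = 7.87e-13), and its 15 min difference of -0.91 was not called (adjusted p = 0.131). At 30 min the sum differed from PBS by -0.38 (edgeR adjusted p = 1), and from 30 min to 4 h it rose by 3.08 (adjusted p = 1.15e-13). Csf2rb held 48.2% of the counts of the pair in PBS (SD 1.77, n = 3), 55.6% at 15 min (SD 8.08), 51.7% at 30 min (SD 5.81), and 70.6% at 4 h (SD 4.25). The share at 4 h was above that of every PBS library. Neutrophils and monocytes are known to carry the common beta chain. The 8 neutrophil markers summed to 2.61 to 3.28 CPM at 15 min, below their PBS range of 4.50 to 5.15 CPM, and to 208 to 210 CPM at 4 h. The 5 monocyte markers went from 39.0 to 48.1 CPM in PBS to 63.5 to 69.0 CPM at 15 min. At 4 h they summed to 142 to 148 CPM, and 4 of 5 were higher, beside 19.1% of all genes. Ly6c2 alone held 38.9 CPM in PBS (SD 4.58, n = 3) and 62.8 CPM at 15 min (SD 3.12, n = 3), where edgeR called 0 of the 5 and the median of the list was -0.34 on the log2 scale. Of all genes, 3.35% were called higher and 0.898% lower at 15 min. By an unadjusted p under 0.05, 1 of the 5 was then higher and 1 lower. The part of these cells in the beta chain values was not tested.

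**Figure D5:**
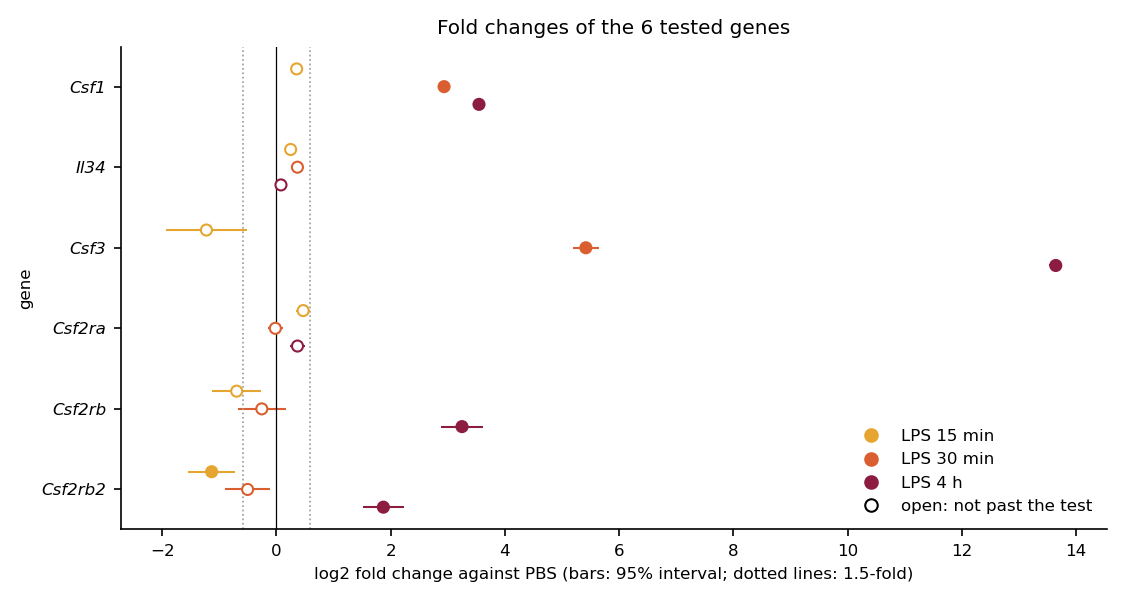
Log2 fold changes against PBS of the 6 tested genes by time after LPS, with bars for the 95% interval, dotted lines at 1.5-fold, and filled points for genes past the test. The intervals use the approximate SE and are too narrow for Csf3. Csf2rb2 is filled at 15 min to the left of the limit, Csf1 and Csf3 at 30 min to its right, and Csf1, Csf3, Csf2rb, and Csf2rb2 at 4 h to its right.

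Counted against the background of all genes, 0 of the 6 tested members were higher at 15 min, where 3.35% of all genes were, and 1 was lower, where 0.898% were. By an unadjusted p under 0.05 for the same fold limit 0 were higher too and 2 were lower, Csf2rb2 and Csf3, and DESeq2 called 0 in either direction. At 30 min 2 were higher and 0 lower, against 3.8% and 0.815% of all genes. At 4 h 4 were higher and 0 lower, against 19.1% and 13.9%. From 15 to 30 min 2 rose, against 2.77% of all genes, and none fell, against 1.99%. From 30 min to 4 h 3 rose, against 17%, and none fell, against 11.9%. In every comparison with 0 members lower, 0 were lower at an unadjusted p under 0.05 as well. The median log2 fold change of the tested members at 15 min was -0.22, at 30 min 0.18, and at 4 h 2.56, beside medians of all genes of -0.0021, -0.010, and -0.0098. All comparisons with PBS share the same 3 control libraries.

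Of 16 other receptors and related ligands, 12 were tested. At 4 h 3 were higher and 2 lower, beside 19.1% and 13.9% of all genes, with a median of 0.26 on the log2 scale. For this list and the next ones the shares of all genes higher and lower were 3.35% and 0.898% at 15 min. At 30 min they were 3.8% and 0.815%. The counts of the lists were not tested against these shares. Besides Csf3r, the rises were in Il3ra, the IL-3 alpha chain (1.75, SE 0.082, edgeR adjusted p = 1.08e-12), and Kit, the stem cell factor receptor (1.62, SE 0.099, adjusted p = 3.15e-10). Il3ra, which pairs with both beta chains, went from 15.5 CPM (SD 1.09, n = 3) in PBS to 52.3 CPM (SD 2.29, n = 3) at 4 h. Epor, the erythropoietin receptor, fell by 1.39 (SE 0.178, edgeR adjusted p = 6.91e-05), and Flt3l, the FLT3 ligand, fell by 0.72 (SE 0.066, adjusted p = 0.0189). Flt3l was already lower at 30 min (-0.78, edgeR adjusted p = 0.0127), and Sdc1, a syndecan that binds IL-34, was lower at 15 min (-0.82, adjusted p = 0.00454). Il3, Il5, Il5ra, and Epo did not pass the filter.

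Among 17 genes of signalling below these receptors, edgeR called none at 15 or 30 min, where 0 also passed an unadjusted p under 0.05, and by 4 h 10 were higher and 1 lower, with a median of 1.45. Stat5a, a transcription factor that GM-CSF and IL-3 activate, rose by 3.46 (SE 0.074, edgeR adjusted p = 9.08e-21), and Stat3, which G-CSF activates, by 2.73 (SE 0.026, adjusted p = 3.27e-27). Inpp5d, which encodes the inositol phosphatase SHIP1, fell by 1.12 (SE 0.086, edgeR adjusted p = 1.41e-06).

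Of 10 feedback and target genes, 1 was higher at 15 min, 5 at 30 min, and 9 at 4 h, and none was lower. The single gene at 15 min was Bcl2l1, a survival gene (0.80, SE 0.027, edgeR adjusted p = 2.4e-07). At 30 min the largest rises were in Osm, the oncostatin M gene (2.77, edgeR adjusted p = 0.00304), Socs3, an inhibitor of cytokine receptors (1.72, adjusted p = 5.08e-13), and Mcl1, another survival gene (1.46, adjusted p = 8.96e-20). Osm held 0.172 CPM (SD 0.111, n = 3) in PBS, so its fold rests on few counts. At 4 h Socs3 was higher by 6.48 (SE 0.057), Myc by 5.34 (SE 0.146), and the kinase gene Pim1 by 4.89 (SE 0.048). The median of the list at 4 h was 3.60. These genes answer many cytokines, so their changes are not particular to colony-stimulating factors.

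The mRNAs of the colony-stimulating factors are known to be short-lived, and 9 regulators of mRNA stability were listed for that reason. Zfp36, whose product tristetraprolin promotes the decay of cytokine mRNAs, was higher by 3.34 (SE 0.026, edgeR adjusted p = 1.73e-27) at 15 min, when no ligand was called. It was higher by 5.40 at 30 min and 4.48 at 4 h. Zc3h12a, for the ribonuclease Regnase-1, was higher by 2.46 at 30 min (edgeR adjusted p = 1.31e-16) and 4.04 at 4 h (adjusted p = 5.3e-23). Zc3h12c was higher at 4 h by 1.00 (edgeR adjusted p = 0.000242), and Zfp36l2 fell by 0.73 (adjusted p = 0.000584). Of the 9, 1 was higher at 15 min, 2 at 30 min, and 5 at 4 h, and 1 was lower at 4 h.

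Of 16 transcription factor genes known to act on these loci, 4 were higher at 15 min, 10 at 30 min, and 15 at 4 h, and none was lower. At 15 min Fos (3.71, SE 0.052), Junb (3.21, SE 0.037), and Jun (2.65, SE 0.032), which encode AP-1 subunits, led, with edgeR adjusted p = 5.17e-23, 1.9e-24, and 9e-24. Fosl1 was higher by 3.97 at 30 min (SE 0.486, edgeR adjusted p = 8.66e-06). By 4 h its difference had reached 7.65 (SE 0.385, edgeR adjusted p = 6.37e-14). In PBS Fosl1 held 0.114 CPM (SD 0.100, n = 3), so its folds rest on few counts and their size is uncertain. Cebpd and Cebpb, for C/EBP factors, were higher at 4 h by 5.75 (SE 0.036) and 5.32 (SE 0.048). This list had a median of 0.03 at 15 min, 1.03 at 30 min, and 3.53 at 4 h.

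The genes closest to each member in pattern were sought among 16306 genes by the Euclidean distance of log2 CPM from the PBS mean over the 12 libraries. For Csf1 the nearest was Irf1 (distance 0.438), whose log2 fold changes of 0.43, 2.80, and 3.36 stood beside 0.35, 2.94, and 3.55. The next were Ifrd1 and Slc25a25 at distances of 1.13 and 1.17. For Csf3 they were Cxcl10, Il6, and Selp, at larger distances of 4.41, 4.48, and 5.27. Cxcl10 had log2 fold changes of 1.19, 4.20, and 12.18, beside -1.22, 5.42, and 13.64 for Csf3. For Csf2rb they were Sphk1, Pik3ap1, and Itgal, and for Csf2rb2 Creb3l1, Pgf, and Tnc. Il34 was nearest to Rabep1, D8Ertd738e, and Heca, and Csf2ra to Smyd5, Atad3a, and Eno2. The points of each pattern share libraries and groups, so the distances are a description.

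The libraries carried the markers of vessels. The 8 endothelial markers summed to 10980 to 11290 CPM in PBS and 7785 to 7833 CPM at 4 h, and 8 mural cell markers to 5781 to 5890 and 5453 to 5566 CPM. Other cells were present at lower levels, with 376 to 406 CPM of 6 astrocyte markers in PBS and 951 to 1000 CPM at 4 h, and 339 to 351 CPM of 6 neuron markers in PBS, 507 to 520 CPM at 15 min, and 253 to 263 CPM at 4 h. Of the 6 astrocyte markers, 3 were higher and 0 lower at 4 h, beside 19.1% and 13.9% of all genes. Their median was 0.51 on the log2 scale. Gja1 alone went from 74.6 CPM in PBS to 522 CPM at 4 h. The size of these changes depends on the scaling. In TPM the endothelial sum was 10190 to 10400 in PBS and 3957 to 4009 at 4 h. The mural sum was 4175 to 4275 and 2051 to 2076 TPM, and the astrocyte sum 221 to 240 and 288 to 308 TPM. Which of the cell types held the transcripts of the members was not tested.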

How the data were processed

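RNA from isolated cerebral vessels was made into unstranded SMART-Seq v4 and Nextera XT libraries. The authors quantified reads with Salmon 1.2.1 against mouse GRCm38.p6, and deposited transcript tables of estimated counts and TPM for 12 libraries and a gene table of normalized counts, a signal scaled by the authors with DESeq2 size factors and average transcript lengths. That table had 0 unmapped per-sample columns. Without strand, sense and antisense reads cannot be told apart.

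Estimated counts were summed by gene with GENCODE M21, where 1096 of 140948 transcripts (0.482% to 0.85% of fragments) found no gene, and were rounded. Genes were filtered with filterByExpr (minimum count 10, total 15, share 0.7). All 12 libraries were fitted together in edgeR 4.0.16 (R 4.3.3) with TMM factors by quasi-likelihood, tested with glmTreat at a log2 limit of 0.58 and adjusted by Benjamini-Hochberg. The common coefficient of biological variation was 0.0524. Intervals of fold changes are 95% normal intervals from the approximate SE, and counting intervals cover counting error only. No libraries were duplicates: the mean variance between replicate pairs was at least 2.54 times counting error. Alternatives used DESeq2 1.42.0, limma 3.58.1 on log2 of the normalized counts plus 1 or plus 10, other scalings, filters and samples. The statistics were tested on simulated data.

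The members, lists and alternatives were chosen with earlier results of these data known. Named were all members, Csf1r and Csf3r, up to 3 largest called rises and falls per list and time, and the 3 nearest genes per tested member with a mean of at least 1 CPM. Genes outside this rule were chosen after their values were seen, and 1 gene that the rule names is not reported here. Promoters are from RefSeq.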

Additional observations from a re-analysis of the deposited data

Results flagged for a closer look

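Between successive LPS times 5 differences of the tested members were past the edgeR test, so the effect of LPS on these genes differed between times. Csf1 was higher at 30 min than at 15 min by 2.58 on the log2 scale. Csf3 was higher at 30 min than at 15 min by 6.642 and higher at 4 h than at 30 min by 8.226. Csf2rb was higher at 4 h than at 30 min by 3.505, and Csf2rb2 by 2.377.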

How the results depend on the processing

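The number of members called at 15 min, 1, became 0 with DESeq2, with no filter, with only the groups compared, and with limma at plus 1 or plus 10, and 5 with no fold limit. Leaving out 1 library gave 0 to 1. With no fold limit 5 were called from 15 to 30 min and 6 from 30 min to 4 h, where leaving out 1 library gave 3 to 5, the 5 without LPS 30 min replicate 1. In many of these fits Csf2 passed the filter, and it was then called and counted. Among the fits without 1 library, only Csf1 of the 6 tested members changed its call for that step, in 1 fit. Counts of members at 30 min and 4 h against PBS stayed within 1.5 times under every alternative run. The near-zero 30 min difference of Csf2ra changed sign to 0.042 with transcript length offsets, 0.024 (0.02379) with limma at plus 1 and 0.024 (0.02361) at plus 10, and spanned -0.066 to 0.019 without single libraries. With library size alone the differences were -0.62 for Il34 and -0.33 for Csf2ra at 4 h, -0.022 for Il34 from 15 to 30 min, and -0.15 for Csf2ra from 30 min to 4 h. Il34 at 4 h was -0.024 with protein-coding transcripts alone, chosen after seeing the data. The cause was not tested.

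Over all genes, calls with no fold limit numbered 7393 at 15 min, 7066 at 30 min and 13124 at 4 h in place of 814, 884 and 6315, and 7153 and 12498 between successive times in place of 911 and 5530. Limma at plus 1 gave 410, 536 and 448, and at plus 10 gave 388, 503 and 417, at 15 min, at 30 min and between them. Library size alone gave 10523 at 4 h and 8915 from 30 min to 4 h. It moved the share of calls that were higher to 37.1% from 58.2% between 15 and 30 min and to 21.7% from 58.8% between 30 min and 4 h.

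Replicate numbers did not pair the libraries: the 18 correlations of deviations lay between -0.049 and 0.068. A replicate block gave 1, 2, 4, 2 and 3 called members in the 5 comparisons, with Csf2rb2 at 15 min at -1.14 (edgeR adjusted p = 0.0371), and changed no call of a member. Over all genes it gave 792 calls at 15 min, 869 at 30 min, 6277 at 4 h, and 890 and 5465 between successive times. Depth limits Csf2, Csf3 in PBS and at 15 min, and the beta chain genes, with at most 499 counts a library for that pair.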

Other observations

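By mean TPM, Csf1 ranked 3849 of 54119 genes in PBS, 3071 at 15 min, 426 at 30 min and 441 at 4 h. Csf3 ranked 19815 in PBS, 22347 at 15 min and 8136 at 30 min. The Csf1 transcript Csf1-205, whose annotated coding sequence is incomplete, held 3.13% of Csf1 TPM in PBS (SD 0.51, n = 3), 3.96% at 15 min (SD 0.608), 10.7% at 30 min (SD 0.265) and 8.95% at 4 h (SD 0.543). Its estimated counts were 11.5, 10.0 and 10.8 in PBS and 259, 244 and 227 at 30 min. The 30 min shares lay above those of all PBS libraries. These transcript values were chosen after they were seen and were not tested.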
